A study of Mus musculus with 9 samples.

Results

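Desmosomes are the junctions that hold epithelial cells together and anchor their keratin filaments at the cell border. Desmogleins and desmocollins, the desmosomal cadherins, bind between neighbouring cells, plakoglobin and the plakophilins gather on their tails, and desmoplakin ties this plaque to keratin. Periplakin and envoplakin are relatives of desmoplakin that scaffold the cornified envelope of the epidermis, and Perp is a tetraspan membrane protein that mouse epidermis needs to assemble desmosomes. These junctions are a feature of epithelial cells, carcinoma cells included.

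The 10 genes described here encode 2 desmosomal cadherins (Dsg2 and Dsc2), plakoglobin (Jup), the plakophilins Pkp1, Pkp2 and Pkp3, the plakins Dsp, Ppl and Evpl, and Perp. They were taken by symbol, as named genes of the junction and its envelope relatives, out of 19938 genes measured, and each had 1 probe set. RNA came from 3 cell lines with 3 arrays each. DR500 cells outlived rising doses of the anthracycline doxorubicin up to 500 ng/ml. MR20 cells outlived methotrexate, which blocks folate metabolism, at 20 µg/ml by the sample labels. 4T1 cells, a mouse mammary adenocarcinoma line, are the untreated parent of both. For MR20 the unit of the dose differs between the labels and the published text, where it is nanograms, and for DR500 some label fields name methotrexate although the treatment text and the paper name doxorubicin. The paper describes surviving colonies for both lines, though its methods name them only for methotrexate. By these methods, doxorubicin doses rose in weekly steps, and cells spent 2 weeks without drug after selection. The labels give at most 2 weeks of selection for both lines, less than the weekly doxorubicin steps of the methods add up to. They give 2 weeks without drug for MR20 and state no such time for DR500. How many clones the lines hold is not given in the sources used here. The labels describe these 4T1 cells as grown in parallel with MR20, whereas for DR500 they name a 4T1 culture of another designation, so culture and line cannot be told apart in DR500 against 4T1. The arrays of a line are called biological replicates or triplicate wells, so p-values measure the spread between these cultures, which may be technical.

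In DR500 cells most of these genes were lower than in 4T1 cells. In MR20 cells changes were small and, among genes that passed the test, more often upward. Of the 10 genes, 7 fell and 1 rose in DR500 against 4T1 (limma, adjusted p under 0.05), where 21.3% of all genes fell and 20.2% rose. Beyond 2-fold, 4 fell, Dsg2, Perp, Dsp and Pkp2, where 3.09% of all genes did. None rose that far (0 at an unadjusted p under 0.05 too), against 2.47% of all genes. In MR20 against 4T1, 4 rose (15.4% of all genes) and 1 fell (17.1%), with 0 beyond 2-fold in either direction by limma, also at an unadjusted p under 0.05 (1.41% of all genes rose and 1.08% fell that far). In DR500 against MR20, 8 fell (20.6% of all genes) and 1 rose (21.2%), with 6 falls (3.23%) and no rise (0 also at an unadjusted p under 0.05, 2.87%) beyond 2-fold. The median log2 fold change of the 10 genes was -0.80 in DR500 against 4T1, 0.01 in MR20 against 4T1 and -1.23 in DR500 against MR20, beside 0.07, -0.01 and 0.07 over all genes. Arrays of the lines compared did not overlap for 9 of the 10 genes in DR500 against 4T1, 6 in MR20 against 4T1 and 9 in DR500 against MR20. Over all 19938 genes this held for 9994, 8999 and 9924, so a lack of overlap was common. Both comparisons with 4T1 share the 4T1 arrays, and those with DR500 share the DR500 arrays. Arrays of bulk cultures cannot tell fewer cells with a transcript from less transcript per cell. Over all genes the balance in DR500 against 4T1 depends on scaling, since 6096 genes rose and 3773 fell once quantile normalization was repeated, and 5886 rose and 3601 fell with arrays centred on their medians, against 4034 and 4239 with the values as deposited.

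**Figure D1:**
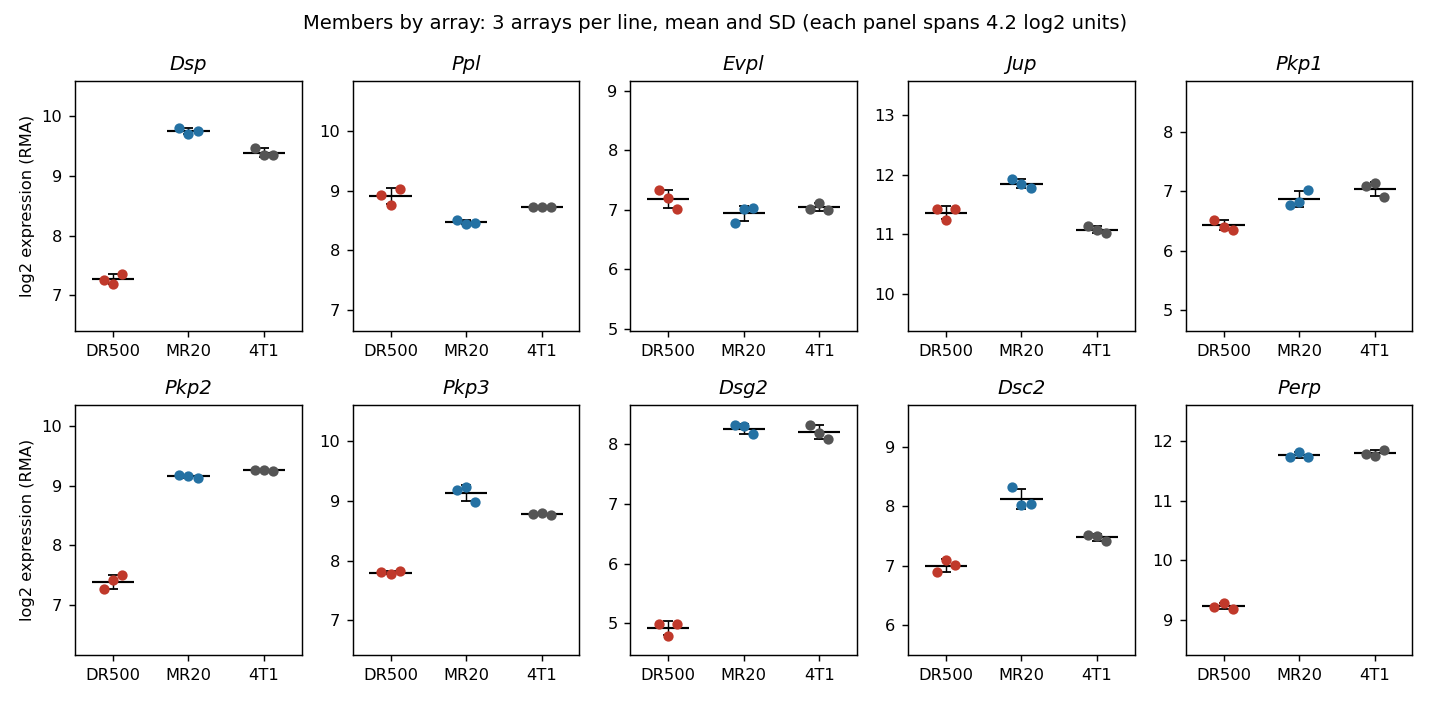
Log2 expression (y axis, RMA values) of the 10 genes in DR500, MR20 and 4T1 cells (x axis). Each point is 1 array, horizontal lines are means and bars are SD of 3 arrays; each panel spans the same number of log2 units. Dsg2, Perp, Dsp and Pkp2 lie far lower in all 3 DR500 arrays than in any MR20 or 4T1 array.

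Among the cadherins, which form the adhesive bond itself, Dsg2 had the largest fall of the 10 genes. Its log2 level was 4.99, 4.79 and 4.99 in DR500 cells, against 8.32, 8.31 and 8.17 in MR20 cells and 8.33, 8.19 and 8.10 in 4T1 cells. All 3 DR500 arrays lay below every other array and below the median of all probe sets, which was 6.24 to 6.38 over the arrays, and MR20 and 4T1 arrays overlapped. The log2 fold change was -3.28 in DR500 against 4T1 (standard error 0.08, 9.74-fold lower, adjusted p = 9.36e-10 from limma), place 43 among all genes ordered from the deepest fall. Whether the DR500 level was above background was not tested. Dsg2 did not pass the test in MR20 (0.06, 95% confidence interval -0.13 to 0.25, adjusted p = 0.701).

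Dsc2, the desmocollin of simple epithelia, fell far less. It measured 6.89, 7.10 and 7.02 in DR500 cells, 8.32, 8.02 and 8.03 in MR20 cells and 7.52, 7.50 and 7.42 in 4T1 cells. The 3 lines did not overlap, with MR20 highest and DR500 lowest. The log2 fold change was -0.47 in DR500 (standard error 0.09, adjusted p = 0.00142) and 0.65 in MR20 (standard error 0.09, 1.57-fold, adjusted p = 2.76e-04). DR500 and MR20 cells differed by -1.12 (standard error 0.09, adjusted p = 3.02e-06). Of 5 other desmosomal cadherin genes measured, Dsg1b, Dsg1c, Dsg3, Dsg4 and Dsc3, which are known from stratified epithelia, none passed the test in any comparison (limma). At an unadjusted p under 0.05, 1 of them, Dsg1b, was higher in DR500 against 4T1 and 0 were in the other comparisons. Their log2 fold changes lay between -0.18 and 0.33 in DR500 and between -0.08 and 0.07 in MR20. Their mean log2 levels were low in every line, from 3.79 to 5.08, below the median of all probe sets. Whether these genes were above background was not tested, so a missing change says little. All 5 are named because the list is short.

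The armadillo proteins, which bind the cadherin tails, did not move as one. Pkp2, which recruits desmoplakin to the border, had log2 levels of 7.26, 7.41 and 7.50 in DR500 cells, against 9.18, 9.16 and 9.14 in MR20 cells and 9.26, 9.26 and 9.26 in 4T1 cells. Pkp3 measured 7.81, 7.77 and 7.82 in DR500 cells, 9.18, 9.23 and 8.99 in MR20 cells and 8.78, 8.79 and 8.77 in 4T1 cells. Pkp1, a plakophilin best known from stratified epidermis, measured 6.52, 6.40 and 6.36 in DR500 cells, 6.76, 6.82 and 7.02 in MR20 cells and 7.08, 7.13 and 6.91 in 4T1 cells. For all 3 plakophilins every DR500 array was below every array of the other lines. Against 4T1 the fall in DR500 was -1.87 for Pkp2 (standard error 0.07, 3.65-fold lower, adjusted p = 8.49e-09), -0.98 for Pkp3 (standard error 0.07, 1.97-fold lower, adjusted p = 1.26e-06) and -0.61 for Pkp1 (standard error 0.09, adjusted p = 2.03e-04). Pkp3 thus lay just inside 2-fold. In MR20, Pkp3 rose by 0.35 (standard error 0.07, adjusted p = 0.00219), while Pkp2 (-0.10, 95% confidence interval -0.24 to 0.05) and Pkp1 (-0.17, -0.37 to 0.02) did not pass.

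Jup, whose product plakoglobin serves both desmosomes and adherens junctions, was higher in both selected lines. Its log2 level was 11.43, 11.24 and 11.43 in DR500 cells, 11.93, 11.84 and 11.79 in MR20 cells and 11.13, 11.07 and 11.02 in 4T1 cells, with no overlap between the lines. The rise was 0.29 in DR500 (1.22-fold, standard error 0.07, adjusted p = 0.00776) and 0.77 in MR20 (1.71-fold, standard error 0.07, adjusted p = 2.06e-05), the largest rise of the 10 genes in MR20, and was lower in DR500 than in MR20 (-0.49, standard error 0.07, adjusted p = 2.73e-04). Jup was the 1 gene of the 10 that rose in DR500. Among 5 relatives with armadillo repeats, 3 rose and none fell in DR500 against 4T1 (limma, 4 and 0 at an unadjusted p under 0.05). Over all genes 20.2% rose and 21.3% fell. The p120 catenin gene Ctnnd1 rose by 0.60 (standard error 0.06), Ctnnd2, the neural delta-catenin, by 0.58 and beta-catenin, Ctnnb1, by 0.29. Mean log2 levels of Ctnnd2 were 6.82 in DR500 and 6.24 in 4T1, against 11.31 and 10.71 for Ctnnd1. In MR20, 1 of these relatives rose, Ctnnd1 (0.77, standard error 0.06), and none fell (2 and 1 at an unadjusted p under 0.05). Over all genes 15.4% rose and 17.1% fell in MR20.

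Of the plakins, Dsp fell in DR500 while Ppl and Evpl did not. Dsp, whose product desmoplakin is the link to keratin, had log2 levels of 7.26, 7.19 and 7.35 in DR500 cells, against 9.81, 9.71 and 9.75 in MR20 cells and 9.47, 9.35 and 9.35 in 4T1 cells. The 3 lines did not overlap. Dsp fell by 2.12 in DR500 against 4T1 (4.36-fold lower, standard error 0.07, adjusted p = 3.35e-09), rose by 0.36 in MR20 (standard error 0.07, 1.29-fold, adjusted p = 0.00146) and was 5.61-fold lower in DR500 than in MR20 (-2.49, standard error 0.07, adjusted p = 8.66e-10).

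Ppl, the periplakin gene, measured 8.93, 8.77 and 9.04 in DR500 cells, 8.51, 8.44 and 8.46 in MR20 cells and 8.72 in each 4T1 array. DR500 was highest and MR20 lowest, without overlap, but the distances were small. The 3 values of 4T1 are identical in the deposited table, as they are in 42 genes of that line, so the spread of this gene comes from the other lines and from limma's shared estimate. In DR500 against 4T1 the difference was 0.19 (95% confidence interval 0.03 to 0.35, adjusted p = 0.0520 from limma). It passed without DR500 replicate 2 (adjusted p = 0.00765) and with a filter on dim genes (0.020). It passed too with a repeated quantile normalization (0.0070), median centring (0.028) and an intensity trend (0.038). In MR20 Ppl fell by 0.25 (standard error 0.07, adjusted p = 0.0185). That fall did not pass without MR20 replicate 2 (adjusted p = 0.0643), without MR20 replicate 3 (0.0548) or without any 1 of the 4T1 arrays (0.0523 to 0.0557). With median centring it did not pass either (0.0802). Between DR500 and MR20, Ppl differed by 0.44 (standard error 0.07, adjusted p = 4.74e-04), higher in 3 of 3 DR500 arrays.

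Evpl, the envoplakin gene, measured 7.33, 7.19 and 7.01 in DR500 cells, 6.78, 7.01 and 7.02 in MR20 cells and 7.01, 7.12 and 7.00 in 4T1 cells. The arrays of the lines overlapped. No comparison passed the test, with 0.14 in DR500 against 4T1 (95% confidence interval -0.07 to 0.34, adjusted p = 0.273), -0.10 in MR20 against 4T1 (-0.31 to 0.10, adjusted p = 0.493) and 0.24 in DR500 against MR20 (0.03 to 0.45, adjusted p = 0.0608). The last of these passed without DR500 replicate 3 (adjusted p = 0.0155), with a repeated quantile normalization (0.0183) and with median centring (0.0229). The first of these passed with a repeated quantile normalization (adjusted p = 0.045). Of 4 other plakin genes, 1 rose and none fell in DR500 against 4T1 (limma, 1 and 0 at an unadjusted p under 0.05). Over all genes 20.2% rose and 21.3% fell. The plakin gene that rose was Plec, which encodes plectin (0.57, standard error 0.08). In MR20, Plec (0.85, standard error 0.08) and the epiplakin gene Eppk1 (0.62, standard error 0.13) rose, and Dst, the dystonin gene, fell by 0.40 (standard error 0.10). Over all genes 15.4% rose and 17.1% fell in MR20.

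Start regions are shown for Dsp, which fell in DR500, and for Jup, which rose in both lines. Of the 10 genes, only these 2 had a window that could be printed here, and their products meet in the same plaque. Windows for these 2 of the 10 genes came from RefSeq promoter tables (GRCm38.p6), cut to the bases before the annotated gene, and run 5′ to 3′ on the gene's strand. Capitals mark the GC box, GGGCGG, on either strand.
Dsp (chr13:38151044-38151293, + strand): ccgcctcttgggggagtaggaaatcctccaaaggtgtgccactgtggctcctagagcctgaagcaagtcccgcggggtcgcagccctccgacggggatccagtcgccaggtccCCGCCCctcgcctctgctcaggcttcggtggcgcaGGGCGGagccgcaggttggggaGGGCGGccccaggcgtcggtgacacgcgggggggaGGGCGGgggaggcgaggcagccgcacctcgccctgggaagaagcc
Jup (chr11:100397840-100398040, - strand): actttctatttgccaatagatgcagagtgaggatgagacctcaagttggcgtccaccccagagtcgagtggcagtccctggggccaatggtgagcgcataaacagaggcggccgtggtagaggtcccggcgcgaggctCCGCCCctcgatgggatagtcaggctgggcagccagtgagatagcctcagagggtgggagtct
The Dsp window of 250 bases holds the GC box 4 times and is 72.4% G or C, and the Jup window of 201 bases holds it 1 time and is 60.2% G or C. The box occurs in 32.7% of 32851 RefSeq windows over the same first 250 bases and in 24.8% over the first 201 bases. The E-box CACCTG, the letters that Snail and Zeb factors bind, is on neither strand of either window, and 17.2% and 14.5% of all windows of these lengths hold it. The Grainyhead-like motif AACCGGTT, which reads the same on both strands, is in neither as well, and 0.116% and 0.0944% of all windows hold it. These matches of letters describe the windows only.

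Perp was next to Dsg2 in the size of its fall. It measured 9.21, 9.28 and 9.18 in DR500 cells, against 11.74, 11.82 and 11.73 in MR20 cells and 11.78, 11.75 and 11.85 in 4T1 cells. All DR500 arrays were lower than all others, and MR20 and 4T1 overlapped. The log2 fold change was -2.57 in DR500 against 4T1 (standard error 0.06, 5.93-fold lower, adjusted p = 5.73e-10), place 70 among all genes from the deepest fall, and -2.54 against MR20 (standard error 0.06, adjusted p = 3.57e-10). In MR20 it was -0.03 (95% confidence interval -0.16 to 0.10, adjusted p = 0.778), with the opposite sign after median centring (0.0088).

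**Figure D2:**
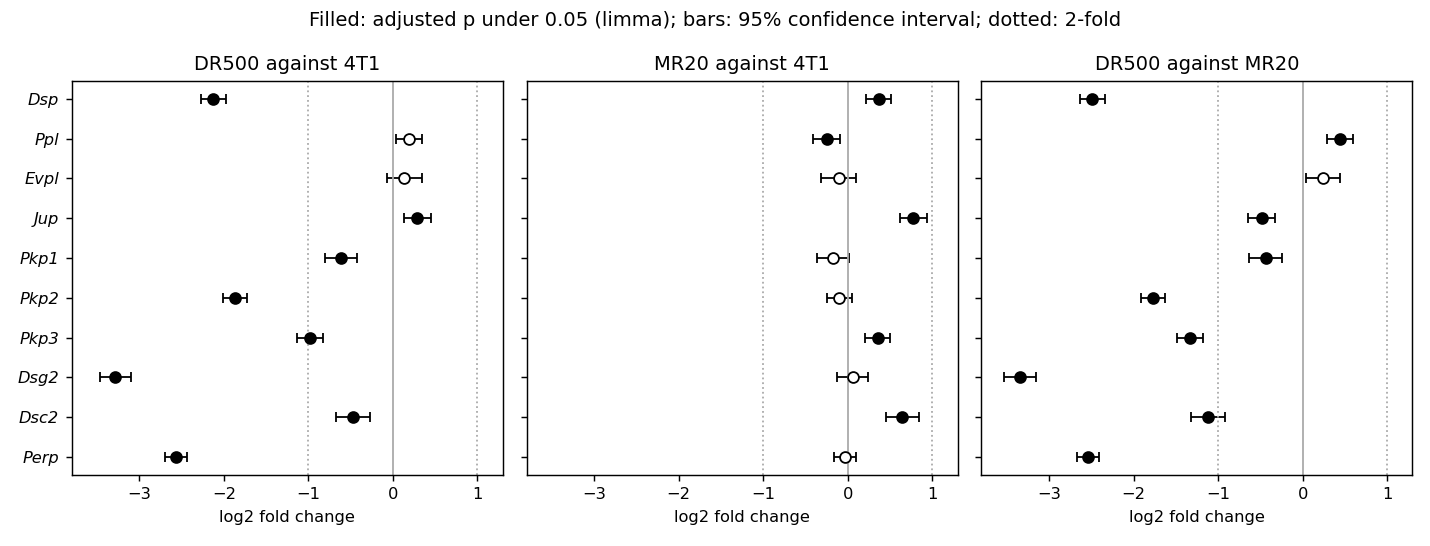
Log2 fold changes (x axis) of the 10 genes (y axis) in DR500 against 4T1, MR20 against 4T1 and DR500 against MR20. Points are estimates from limma, filled at an adjusted p under 0.05, bars are 95% confidence intervals and dotted lines mark 2-fold. Dsg2, Perp, Dsp and Pkp2 lie beyond 2-fold lower in both comparisons of DR500, and no gene does in MR20 against 4T1.

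Direct comparison of the selected lines put 6 genes beyond 2-fold lower in DR500 than in MR20. Dsg2 differed by -3.34 (standard error 0.08, 10.2-fold, adjusted p = 6.41e-10), and Pkp2 by -1.77 (standard error 0.07, 3.41-fold, adjusted p = 1.01e-08). Pkp3 (-1.33, standard error 0.07, 2.52-fold, adjusted p = 1.06e-07) and Dsc2 (2.17-fold) passed 2-fold here and not against 4T1, as both were higher in MR20 than in 4T1. Pkp1 was lower by -0.44 (standard error 0.09, adjusted p = 0.00203).

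Some genes of neighbouring structures fell in DR500 with the desmosome genes, but the medians of their lists stayed near that of all genes. In DR500 against 4T1 these medians were 0.03 for intermediate filament genes, 0.14 for classical cadherins and catenins and 0.08 for hemidesmosome genes. Over all genes the median was 0.07, with 21.3% falling and 20.2% rising. Beyond 2-fold, 4 of 11 intermediate filament genes, 2 of 6 hemidesmosome genes and 1 of 7 classical cadherin and catenin genes fell. Over all genes 3.09% fell and 2.47% rose that far, and no gene of these lists rose that far. In MR20 against 4T1, 17.1% of all genes fell and 15.4% rose. Of 11 keratin and other intermediate filament genes, 5 fell and 2 rose in DR500 against 4T1. Krt7, a keratin of simple epithelia, fell by 5.67 (standard error 0.07), and the basal keratin Krt14 (-2.58), Krt19 (-2.37) and Krt17 (-1.18) fell too. Krt18 and Krt8, the brightest keratins of the list, changed little, as Krt18 fell by 0.36 and Krt8 did not pass (0.03, adjusted p = 0.758 from limma). Their mean log2 levels were 12.63 and 13.43 in DR500, against 12.99 and 13.41 in 4T1. Krt7, the next keratin in brightness in 4T1 (12.64), had a mean log2 level of 6.96 in DR500. The genes that rose were Vim (0.34) and Des (0.73), which are not keratins. Mean log2 levels in DR500 and 4T1 were 13.84 and 13.50 for Vim but only 6.27 and 5.54 for Des. In MR20, 7 rose and none fell (limma; 7 and 0 before adjustment), with Krt14 up by 2.24 (standard error 0.06) and Krt19 by 0.68. Of 7 classical cadherin and catenin genes, a list that shares Ctnnb1 and Ctnnd1 with the armadillo relatives, 3 rose and 2 fell in DR500. Cdh1, which encodes E-cadherin, fell by 3.84 (standard error 0.08) and P-cadherin, Cdh3, fell by 0.89, while Vcl, the actin linker vinculin, rose by 0.79. In MR20, 2 rose, Ctnnd1 and the alpha-catenin gene Ctnna1 (0.35), and Cdh3 fell by 0.74.

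Hemidesmosomes tie keratin to the basement membrane. Of 6 such genes measured, 2 fell in DR500, the laminin chain genes Lamb3 (-2.77, standard error 0.11) and Lama3 (-1.69, standard error 0.12), and 2 rose, among them the tetraspanin gene Cd151 (0.75). In MR20, 4 rose and none fell (limma; 5 and 0 before adjustment), among them Lama3 (0.75), the integrin gene Itgb4 (0.37) and Cd151 (0.30).

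For the cornified envelope, the protein shell of terminally differentiated keratinocytes, 19 genes were measured. In DR500, 2 rose, Cdsn, which encodes the adhesion protein corneodesmosin (0.93, standard error 0.09), and the suprabasin gene Sbsn (0.65), and 1 fell, the annexin gene Anxa1 (-0.87). In MR20, 5 rose and 1 fell, with rises in the cross-linked precursors Sprr1a (1.01, standard error 0.14) and Ivl, involucrin (0.97, standard error 0.22), and in Sbsn (0.48). The medians of this list were 0.08 and -0.06, close to those of all genes. The mean log2 level of Ivl, 5.32 in DR500, 6.20 in MR20 and 5.24 in 4T1, lay below the median of all probe sets.

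**Figure D3:**
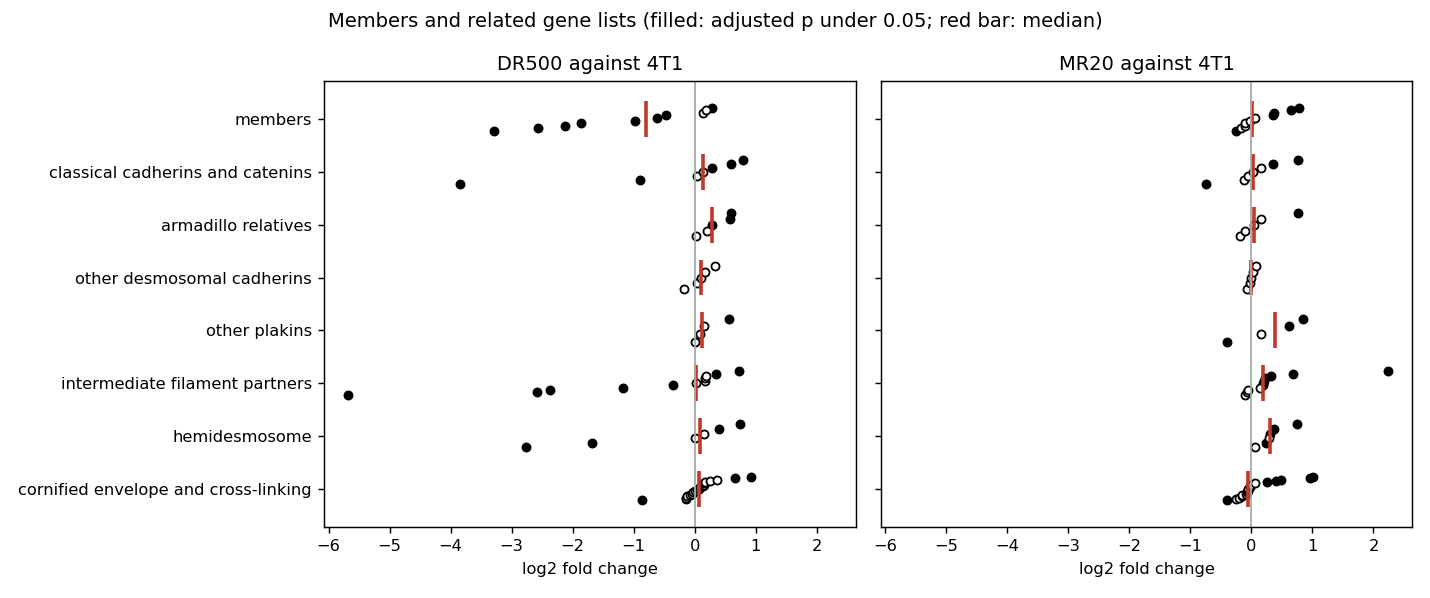
Log2 fold changes (x axis) in DR500 against 4T1 and MR20 against 4T1 of the 10 genes described here (members) and of 7 related gene lists (rows on the y axis). Points are genes, filled at an adjusted p under 0.05, and red bars are medians. The median of the 10 genes is -0.80 in DR500 and 0.01 in MR20, and the deepest falls in DR500 among the related genes are those of Krt7 (-5.67) and Cdh1 (-3.84).

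Among 12 transcription factor genes known to act on epithelial genes, 4 rose and 4 fell in DR500, where 20.2% of all genes rose and 21.3% fell. Grhl2, a Grainyhead-like activator of epithelial junction genes, fell by 3.19 (standard error 0.08), and the repressor genes Zeb2 and Snai1 rose by 1.49 and 1.34. In MR20, 2 rose (15.4% of all genes) and 5 fell (17.1%), among them Snai1 (0.37) and Klf5 (-0.39). Trp63 and Zeb1 were picked after their values were seen. Of these, Trp63, the p63 gene, rose by 0.36 in DR500 (standard error 0.07), and Zeb1, a relative of Zeb2, fell by 0.50. The other listed factors past the threshold in DR500 were Ovol1 (-0.86), Ovol2 (-0.48) and Klf4 (0.22). The part of any of these factors in the changes of the desmosome genes was not tested.

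The genes other than the 10 whose pair of log2 fold changes in DR500 and in MR20 lay nearest to that of Dsp (-2.12 and 0.36) were the protease gene Prss22 (-2.01 and 0.31, distance 0.124), the integrin gene Itga2 (-2.06 and 0.49, 0.139), the kinase gene Shpk (-2.28 and 0.44, 0.175), Marveld2, which encodes a protein of tricellular tight junctions (-2.24 and 0.22, 0.185), and the kinase gene Nuak1 (-2.31 and 0.44, 0.197). Distances are Euclidean, over the means of 3 lines, and carry no test.

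Markers of epithelium, which share Cdh1, Krt8, Krt18 and Krt19 with the lists above, were read on the same arrays. Of 8, 7 fell and none rose in DR500 (limma; 7 and 0 at an unadjusted p under 0.05), led by the splicing factor gene Esrp1 (-5.46), the claudin gene Cldn3 (-4.32) and Epcam (-4.19). Their mean log2 levels in DR500 were 5.25, 7.28 and 6.82, against 10.75, 11.10 and 10.84 in MR20 and 10.71, 11.60 and 11.01 in 4T1. The summed linear signal of the 8 genes was 17510 to 19020 in DR500, 32900 to 33580 in MR20 and 30270 to 31490 in 4T1. Krt8 and Krt18, the brightest of the 8 in each line, weighed most in these sums (mean log2 levels 13.43 and 12.63 in DR500). Of 6 leukocyte markers, Cd53 (4.35) and Cd68 (2.30) rose in DR500, and both rose in MR20 (0.95 and 1.23). The other 4 did not pass against 4T1 in either line (limma). Sums over the 6 genes were 2689 to 3009 in DR500, 1203 to 1245 in MR20 and 590 to 642.6 in 4T1. Cd68 was the brightest of the 6 in each line, and in DR500 Cd68 and Cd53 (mean log2 levels 11.07 and 9.17) weighed most in the sum. Ptprc, the pan-leukocyte CD45 gene, had mean log2 levels of 5.24 in DR500, 5.18 in MR20 and 5.17 in 4T1 and did not pass the test in either line. Of 7 fibroblast markers, Pdgfra (1.70) and Dcn (0.56) rose in DR500 and Pdgfra fell in MR20 (-0.63). Dcn was dim, with mean log2 levels of 5.74 in DR500 and 5.18 in 4T1. The other 5, the collagen genes Col1a1, Col1a2 and Col3a1 among them, did not pass in DR500 against 4T1 (limma). In DR500 against MR20, 5 of the 7 rose and none fell, where 21.2% of all genes rose and 20.6% fell. Among them were Col1a1 (0.31, adjusted p = 0.0190 from limma), Col1a2 (0.32, 0.0351) and Col3a1 (0.22, 0.0492). Sums were 1548 to 1695 in DR500, 630.8 to 685.7 in MR20 and 768.4 to 815.5 in 4T1. Pdgfra was the brightest of the 7 in each line and weighed most in the DR500 sum (mean log2 level 10.07). None of 6 endothelial markers passed (limma; 2 in DR500 and 0 in MR20 at an unadjusted p under 0.05). The part of these markers in the falls of the desmosome genes was not tested. DR500 replicate 1 lay furthest from its line mean (root mean square 0.147 over genes, 0.0751 to 0.122 for the other arrays), and without it the calls of the 10 genes did not change. Array batches and hybridization dates are not given in the sources used here, so a batch of the DR500 arrays and the line cannot be told apart.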

How the data were processed

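RNA of 3 lines with 3 wells each was measured on Affymetrix whole-transcript mouse arrays with 1 colour. The authors made the deposited log2 values with robust multi-array normalization in the package affy (background correction, quantile normalization and summary of the probes). Software versions are not given in the sources used here, nor is it stated that 1 normalization covered every array.

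From these log2 values, 21789 of 35556 probe sets with exactly 1 gene symbol in the platform annotation were kept, 21698 of them renamed by Entrez identifier, and the brightest by mean over 9 arrays stood for each of 19938 genes. Limma 3.58.1 in R 4.3.3 fitted a mean per line over all 9 arrays with 6 residual degrees of freedom. Benjamini-Hochberg adjustment ran over all genes in each comparison. A gene fell or rose at an adjusted p under 0.05, whatever its fold change. Counts beyond 2-fold add the fold threshold that the study's gene lists also required. No filter was applied, and the number of arrays limits precision. With 3 against 3 arrays an exact permutation test cannot give a p below 0.1, so none was run. The fit was tested on simulated data.

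The members and lists were chosen with earlier results of these data known. Beside the 10 members, each list gave per comparison up to 3 names, those that changed most among its genes past the threshold, and the 5 genes nearest to Dsp were named too. Further genes were named after their values were seen, to show how the rest of a list moved. The GC box was added to the motifs searched after the windows were seen. Listed genes without a probe set of their own were not analysed here. Replicate numbers do not pair the arrays (arrays that share a number had deviations correlated, across genes, at -0.309 to 0.327). Results were recomputed with only the compared lines in the fit, a filter on dim genes, a repeated quantile normalization, median centring, the mean of a gene's probe sets, an intensity trend, a replicate block and leaving out each array.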

Additional observations from a re-analysis of the deposited data

Results flagged for a closer look

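Dsp, Pkp3 and Dsc2 stood out because they moved in opposite directions in the selected lines, lower than 4T1 in DR500 and higher than 4T1 in MR20. The direct difference of DR500 against MR20 was -2.49 for Dsp (adjusted p = 8.66e-10 from limma), -1.33 for Pkp3 (adjusted p = 1.06e-07) and -1.12 for Dsc2 (adjusted p = 3.02e-06), each lower in 3 of 3 DR500 arrays than in any MR20 array.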

How the results depend on the processing

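Over 7 other settings and 9 fits that left out 1 array, the 10 genes kept direction and side of the threshold in 458 of 474 values. The 4 falls beyond 2-fold in DR500 against 4T1 and the 6 in DR500 against MR20 were counted in each. Rises in DR500 against 4T1 numbered 2 with a filter on dim genes, with median centring and with an intensity trend, 3 with a repeated quantile normalization and 1 to 2 without single arrays. In DR500 against MR20 they numbered 2 with a repeated quantile normalization and with median centring, and 1 to 2 without single arrays. Falls in MR20 against 4T1 numbered 0 with median centring and 0 to 1 without single arrays. Perp in MR20 changed sign with median centring (0.0088, adjusted p = 0.951). In the fit of only the lines compared and with a replicate block, 7 genes fell in DR500 against 4T1, as in the fit of all arrays, and no call of the 10 genes changed. The filter on dim genes kept 9969 genes and left out Pkp1 and Evpl, so that falls numbered 6 in DR500 against 4T1 and 7 in DR500 against MR20. The other moves of these counts were calls of Ppl or Evpl gained or lost. Over all genes, rises in DR500 against 4T1 numbered 6096 with a repeated quantile normalization, against 4034. Counts of the related and marker lists stayed within 1.5 times in 1031 of 1152 values. Causes were not tested. No signal was tested against background, so how far a low level such as that of Dsg2 in DR500 bounds its fall is not known.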
